A study of Mus musculus with 7 samples.

Results

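The genes described here are the 9 members of the interleukin-4 (IL-4) and interleukin-13 (IL-13) axis that were chosen by symbol from the table of 24421 genes: the ligands Il4 and Il13, the receptor chains Il4ra, Il2rg and Il13ra1, the transcription factor genes Stat6 and Irf4, and the response genes Arg1 and Chil3. All 9 had a row in the table, and all 9 passed the count filter, as did 12428 genes in all. RNA was sequenced from eosinophils sorted from damaged mouse muscle taken 3 days after ntx, a term the labels do not spell out. There were 3 libraries of genotype WT and 4 of genotype IL5-Tg, the design text's mice with an excess of eosinophils. The labels give neither the promoter of the transgene nor the cells it acts in. Nor do they state that each library is from its own mouse, so a p-value reflects only the spread between libraries, which may be technical. In both groups the cells were sorted for CD45 and SiglecF and against NK1, Ly6G and CD3e, with a CD11b gate that the labels write CD11bing, and the series' title concerns mdx mice, but no label gives these 7 samples an mdx allele.

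IL-4 and IL-13 are related cytokines of type 2 immunity that are made by T helper cells, innate lymphoid cells, mast cells, basophils and eosinophils. IL-4 binds the chain encoded by Il4ra and then recruits either the common gamma chain (Il2rg) or the chain encoded by Il13ra1, while IL-13 binds the Il13ra1 chain and then recruits the Il4ra chain. Janus kinases on these chains phosphorylate STAT6, which enters the nucleus and binds palindromes with the outer letters TTC and GAA. In injured muscle, IL-4 from eosinophils is known to act on fibro-adipogenic progenitors, the cells that support the regrowth of fibres.

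The ligand genes lie side by side on mouse chromosome 11 (mm10, GENCODE vM21). Il4 spans 53602982 to 53618669 and Il13 spans 53631324 to 53634702, both on the minus strand and 12.7 kb apart. Rad50 follows after 14.8 kb, and Il5, the gene that gives the transgenic mice their name, starts a further 13.5 kb away. Il4ra lies on chromosome 7 at 125552120 to 125579474 (plus strand), Stat6 on chromosome 10 at 127642986 to 127660957 (plus strand), Arg1 on chromosome 10 at 24915221 to 24927484 (minus strand), Chil3 on chromosome 3 at 106147554 to 106167564 (minus strand) and Irf4 on chromosome 13 at 30749226 to 30766976 (plus strand). Il2rg and Il13ra1 are both on chromosome X, at 101264378 to 101268255 (minus strand) and 36112110 to 36171259 (plus strand). Stat6 overlaps Nab2 on the other strand, Il4ra overlaps an antisense gene, and Il2rg overlaps a second coding gene model on its own strand, so reads in the shared stretches may have been assigned either way or left out as ambiguous.

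The promoter windows of 4 members are shown because their RNA levels carry the comparison below. These members are the pair of ligands, the receptor chain that rose, and Chil3, beside the related gene Chil4. Windows are from RefSeq (GRCm38.p6, the assembly behind mm10) and run 5′ to 3′ on the gene's strand up to its start, without bases that GENCODE places inside the gene. Capitals mark a match to TTCNNNGAA, the STAT motif with 3 free bases, or to the same outer letters with 4 free bases, the spacing that STAT6 prefers. Both motifs are their own reverse complement, so a single reading covers both strands, and no match of one overlapped a match of the other in the windows shown.
Il4, chr11:53618670-53618915, minus strand: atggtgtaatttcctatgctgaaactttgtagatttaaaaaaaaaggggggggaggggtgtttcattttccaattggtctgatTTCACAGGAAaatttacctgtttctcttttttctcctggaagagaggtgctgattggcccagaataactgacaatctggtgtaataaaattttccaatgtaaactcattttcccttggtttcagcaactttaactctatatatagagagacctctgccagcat
Il13, chr11:53634703-53634952, minus strand: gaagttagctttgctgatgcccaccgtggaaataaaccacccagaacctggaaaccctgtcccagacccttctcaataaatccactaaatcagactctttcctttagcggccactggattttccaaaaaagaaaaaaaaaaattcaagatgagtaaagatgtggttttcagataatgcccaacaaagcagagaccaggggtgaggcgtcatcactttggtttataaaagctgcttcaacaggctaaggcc
Il4ra, chr7:125552021-125552119, plus strand: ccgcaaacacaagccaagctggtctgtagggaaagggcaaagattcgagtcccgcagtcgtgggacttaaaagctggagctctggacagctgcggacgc
Chil3, chr3:106167565-106167814, minus strand: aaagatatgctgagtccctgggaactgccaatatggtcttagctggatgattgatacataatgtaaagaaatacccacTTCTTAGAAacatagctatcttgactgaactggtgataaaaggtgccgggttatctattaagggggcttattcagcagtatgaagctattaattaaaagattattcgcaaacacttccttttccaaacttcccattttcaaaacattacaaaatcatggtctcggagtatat
Chil4, chr3:106219508-106219729, minus strand: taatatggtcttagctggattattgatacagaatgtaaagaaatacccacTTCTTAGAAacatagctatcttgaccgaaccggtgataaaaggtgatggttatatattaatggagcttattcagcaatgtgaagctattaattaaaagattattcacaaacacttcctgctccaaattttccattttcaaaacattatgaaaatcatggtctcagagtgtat

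RefSeq windows were found for 8 of the 9 members and not for Arg1, and Il4 had a second window inside the gene that is not shown. Among the 9 windows of 250 bases before a start, that of Il4 held the form with 4 free bases once, as TTCACAGGAA at -167 to -158, and that of Chil3 held TTCNNNGAA once, as TTCTTAGAA at -172 to -164. Of 32851 promoter windows of that length, 7.02% held TTCNNNGAA, 5.85% held the form with 4 free bases and 12.4% held either, so matches of this kind are common. The windows of Il13, Il4ra, Il13ra1, Il2rg, Stat6 and Irf4 held neither string of letters. Chil4 carried the same 9 letters as Chil3, at -200 to -192, and the best local alignment of the 2 windows was identical in 90.5% of 222 columns. Positions count back from the RefSeq start. Of 250 bases, 222 are printed for Chil4, 246 for Il4 and 99 for Il4ra, so these printed sequences end before that start. The positions given for Chil4 and Il4 are therefore not distances from their printed ends.

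Total counts ranged from 11581365 to 20231509 per library and counts within genes from 9665093 to 17447106. The eosinophil genes Siglecf (251 to 857 CPM), Ccr3 (575 to 1393 CPM) and Il5ra (48.0 to 181 CPM) had reads in every library. Of the 11 eosinophil markers 9 had a positive log2 fold change (median 0.60), and 3 granule protein genes were called higher in IL5-Tg by edgeR (Prg2, Ear1 and Ear6), 0 lower. Over all 12428 genes tested, 6472 had a positive value and 42 were called higher. The relation of the granule protein genes to Il4ra was not tested. Here CPM is counts per 1000000 of the library's gene counts scaled by trimmed mean of M-values (TMM). Il5 itself stood at 338 to 447 CPM in the IL5-Tg libraries, at 1.39 CPM in WT replicate 1 and at 0 reads in the other two WT libraries. RNA of other cells was present. The neutrophil list summed to 9303 to 10497 CPM in WT and 2532 to 4296 CPM in IL5-Tg libraries, with no overlap. The eosinophil list summed to 4960 to 9522 CPM in WT and 6569 to 11655 CPM in IL5-Tg libraries. Of the 9 tested neutrophil markers, 1 was called lower and 1 higher by edgeR. The part of these differences in marker RNA in the members' fold changes was not tested. WT replicate 3 stood apart with the lowest summed levels of the macrophage list (3407 CPM, against 5233 to 8949 CPM in the other 6 libraries) and of the fibroblast list (386 CPM, against 2264 to 4742 CPM). Reads per low gene clustered at a most common value of 5, 8 or 12 in the WT libraries, against 1 or 4 in the IL5-Tg libraries, so a level of a few CPM rests on fewer independent molecules in WT. In bulk RNA, fewer cells of a type and less RNA per cell cannot be told apart.

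The comparison asked how the ligand, receptor and response RNAs of this axis differed between cells sorted as eosinophils from IL5-Tg and WT muscle. Of the 9 members, Il4ra rose and the other 8 did not pass the test. Across all genes tested, 0.41% were called at an edgeR adjusted p under 0.05 (51 of 12428) with 0.338% higher and 0.0724% lower in IL5-Tg, so 1 called member of 9 is a small count. The log2 fold change was positive for 6 members and for 6472 of the 12428 genes tested. The median over the 9 was 0.17, against 0.026 for all genes tested. Two-sided unadjusted p was under 0.05 for 2 members, Il4ra and Il4, and for 9.04% of all genes by edgeR.

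**Figure D1:**
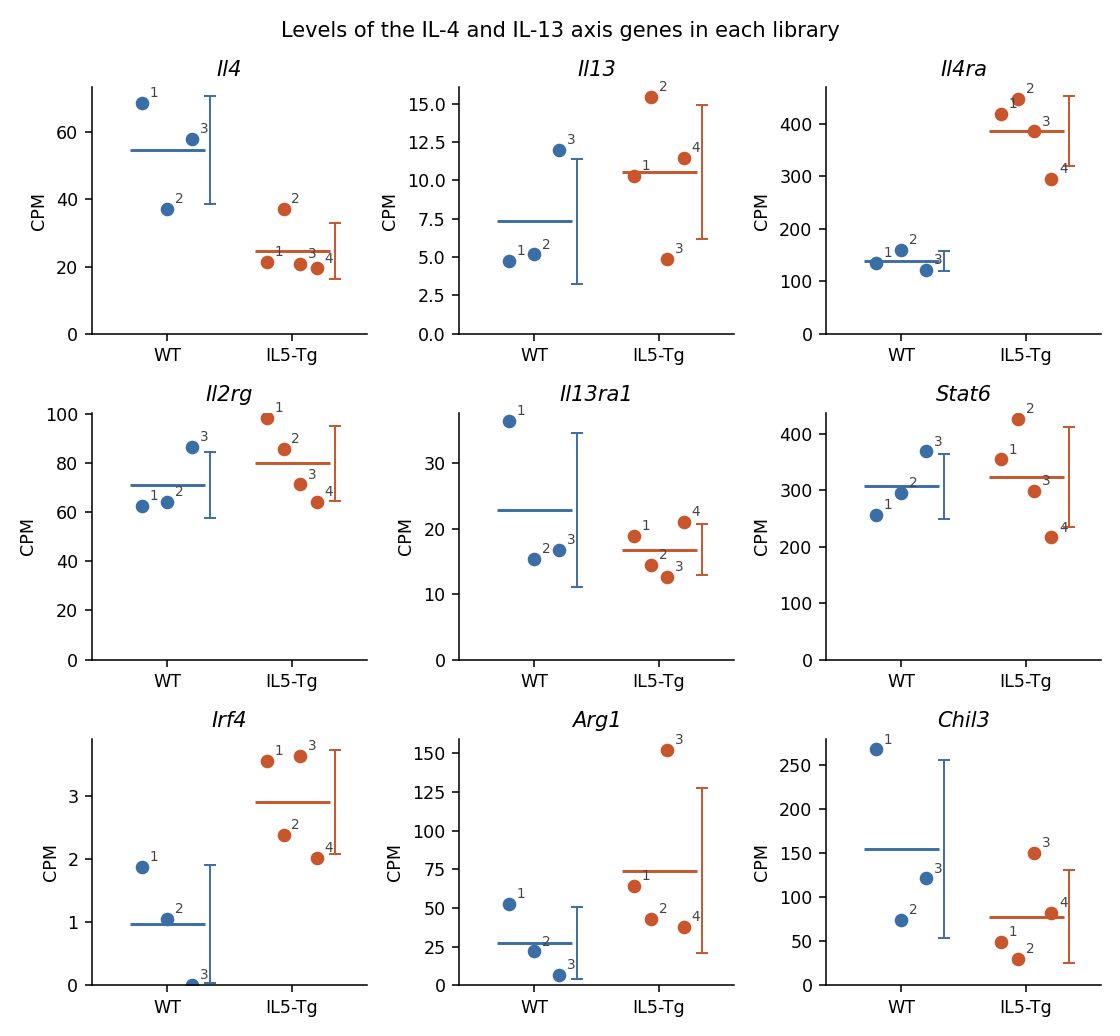
Level of each of the 9 genes in CPM (linear axes from 0) in the 3 WT and 4 IL5-Tg libraries; points are libraries numbered by replicate, the horizontal line is the group mean and the bar beside it is 1 SD either way. Il4ra and Irf4 have groups that do not overlap, as do 9.36% of all genes tested, and Irf4 is near the detection floor. Il4 is lower in 3 of the 4 IL5-Tg libraries than in any WT library.

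Il4, the founding cytokine of the axis, was detected in every library. WT replicates 1, 2 and 3 held 68.6, 37.1 and 57.9 CPM of it. In IL5-Tg replicates 1, 2, 3 and 4 it was 21.5, 37.1, 20.7 and 19.5 CPM. The groups met at a single point: WT replicate 2 and IL5-Tg replicate 2 differed by less than 0.1 CPM, while the other 3 IL5-Tg libraries were below all WT libraries. The WT mean of 54.5 ± 16.1 CPM (SD, n = 3) compares with 24.7 ± 8.33 CPM (SD, n = 4) in IL5-Tg. Its log2 fold change was -1.14 ± 0.32 (SE), with a 95% interval from -1.86 to -0.43, and it did not pass over all genes (edgeR adjusted p = 0.254).

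Il13, the second ligand, was scarcer and went the other way in its point estimate. WT replicates 1, 2 and 3 held 4.77, 5.17 and 12.0 CPM, from 79, 49 and 127 reads. IL5-Tg replicates 1, 2, 3 and 4 held 10.3, 15.4, 4.88 and 11.5 CPM. The groups overlapped, with WT replicate 3 among the higher libraries and IL5-Tg replicate 3 among the lower ones. Its log2 fold change was 0.53 ± 0.52 (SE), with a 95% interval from -0.63 to 1.68 (edgeR adjusted p = 0.874). Without WT replicate 3 it was 1.11, still not passing (edgeR adjusted p = 0.551).

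The neighbouring ligand genes can be set against each other within a library. Per length of annotated exon, the level of Il4 was 14.1, 7.03 and 4.74 times that of Il13 in WT replicates 1, 2 and 3. In IL5-Tg replicates 1, 2, 3 and 4 it was 2.04, 2.36, 4.16 and 1.67 times that of Il13. All 4 IL5-Tg ratios were below all 3 WT ratios, by a narrow margin between WT replicate 3 and IL5-Tg replicate 3. This ratio was formed after the values were seen and is given with no test. Its denominator rests on few molecules in WT, where Il13 had 79, 49 and 127 reads at most common low counts of 5, 8 and 12. In the level of single genes, 9.36% of all tested had groups that did not overlap, but no such share was formed for ratios. Rad50, the gene between Il13 and Il5 whose introns hold the control region of this locus, was at 8.83 ± 2.42 CPM in WT (SD, n = 3) and 12.1 ± 3.32 CPM in IL5-Tg libraries (SD, n = 4; log2 fold change 0.45, edgeR adjusted p = 0.848).

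Mast cells and basophils also make both ligands, and their marker RNA was lower in the same group as Il4. The 12 markers of that list summed to 228 to 510 CPM in WT and 61.3 to 82.7 CPM in IL5-Tg libraries, and without Hdc, the histidine decarboxylase gene that made up most of the sum, to 81.7 to 119 CPM and 3.07 to 30.8 CPM. Of the 6 tested markers 1 was called lower (Hdc) and 0 higher. The basophil protease gene Mcpt8 had 25 reads in WT replicate 2, at most 1 read in any other library, and Mcpt1 had 0 reads in all 7. IL5-Tg replicate 2 had 0 reads of Cpa3, Mcpt4, Tpsb2, Ms4a2 and Fcer1a and 1 read of Cma1, but the highest Hdc level of the IL5-Tg libraries (66.9 CPM, against 37.5, 43.9 and 59.8 CPM in replicates 1, 3 and 4). It was also the IL5-Tg library with the highest Il4 and Il13 levels. Of the T cell genes, Cd3e had reads in 1 library only (3 reads) and Gata3 had 0 reads in all WT libraries and 10 in the IL5-Tg libraries together. The part of mast cell RNA in the difference in Il4 between the groups was not tested.

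Il4ra encodes the chain shared by both receptors of the axis, and it was the member that rose. WT replicates 1, 2 and 3 held 135, 160 and 122 CPM. IL5-Tg replicates 1, 2, 3 and 4 held 419, 447, 385 and 295 CPM. The groups did not overlap: the lowest IL5-Tg library was well above the highest WT library. Over all genes 9.36% did not overlap, 4.76% with IL5-Tg higher and 4.6% with IL5-Tg lower. The mean was 139 ± 19.4 CPM in WT (SD, n = 3) against 387 ± 66.2 CPM in IL5-Tg libraries (SD, n = 4), and the fitted difference was 2.78-fold. On the log2 scale it was 1.48 ± 0.25 (SE), with a 95% interval from 0.93 to 2.03 (edgeR adjusted p = 0.0382).

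The direction of Il4ra held under all 17 alternative settings, but its call did not. Leaving out 1 library at a time gave log2 fold changes from 1.40 to 1.62 and kept the call in 1 of 7 fits, without IL5-Tg replicate 4 (edgeR adjusted p = 0.0492). The adjusted p was 0.155, 0.0518 and 0.0594 without WT replicates 1, 2 and 3, and 0.209, 0.166 and 0.147 without IL5-Tg replicates 1, 2 and 3. The call was also lost by limma-voom (adjusted p = 0.0557) and in edgeR with the shared starts of sample titles as a block, at a log2 fold change of 1.20 (adjusted p = 0.451).

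Il2rg, which encodes the common gamma chain of several interleukin receptors, did not pass the test. The WT libraries held 62.5, 64.1 and 86.6 CPM in the order of their numbers, and the IL5-Tg libraries 98.4, 85.9, 71.3 and 64.1 CPM. The ranges overlapped nearly completely. The log2 fold change was 0.17 ± 0.25 (SE; 95% interval -0.38 to 0.72, edgeR adjusted p = 0.918), so a doubling lay outside the interval.

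Il13ra1, whose chain pairs with the Il4ra chain, was low and also did not pass. WT replicate 1 stood highest at 36.4 CPM, followed by 15.4 and 16.8 CPM in WT replicates 2 and 3. The IL5-Tg libraries held 18.9, 14.5, 12.6 and 21.1 CPM, around the 2 lower WT libraries. The log2 fold change was -0.45 ± 0.37 (SE; 95% interval -1.28 to 0.38, edgeR adjusted p = 0.829), and without WT replicate 1 it was 0.064. Il13ra2, the decoy receptor of IL-13, did not pass the count filter and was at most 0.95 CPM in any library.

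**Figure D2:**
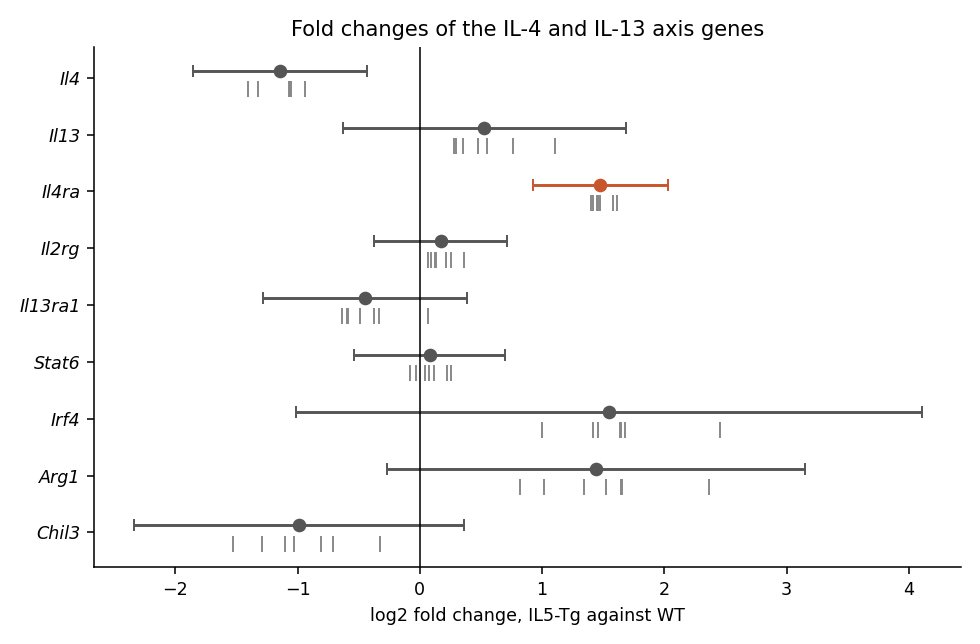
Log2 fold change of IL5-Tg against WT for the 9 genes (x axis); points with bars are the edgeR estimates with 95% intervals, the called gene in orange, and grey ticks are the 7 fits that each leave out 1 library. Il4ra lies at 1.48 with its ticks between 1.40 and 1.62, while the ticks of Arg1, Chil3 and Irf4 spread over more than 1 log2 unit.

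Stat6 encodes the transcription factor of the pathway and was among the most abundant of the members in CPM. The WT libraries held 257, 295 and 369 CPM. The IL5-Tg libraries held 355, 427, 299 and 217 CPM, and the IL5-Tg range enclosed the WT range. The log2 fold change was 0.079 ± 0.28 (SE; 95% interval -0.54 to 0.70, edgeR adjusted p = 0.963).

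Irf4, a transcription factor induced downstream of STAT6 in macrophages, was near the detection floor. WT replicates 1 and 2 had 31 and 10 reads, or 1.87 and 1.06 CPM. WT replicate 3 had 0 reads, which allows up to 0.284 CPM by a floor of 3 reads. Every IL5-Tg library had some, with 3.56, 2.38, 3.64 and 2.03 CPM from 38, 31, 50 and 39 reads. The groups did not overlap, but by a floor of 3 molecules at the most common low count WT replicate 3 could have held up to 3.40 CPM. The fitted log2 fold change was 1.55 ± 1.15 (SE; 95% interval -1.02 to 4.11, edgeR adjusted p = 0.799), and it was 2.46 without WT replicate 1 and 0.996 without WT replicate 3.

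Per length of annotated exon, the receptor chains stood in another order in IL5-Tg than in WT libraries. In WT libraries, Il2rg (29.8 ± 5.64 CPM per kb, SD, n = 3) and Il4ra (23.2 ± 3.23 CPM per kb, SD, n = 3) were close, and Il13ra1 was lowest (6.17 ± 3.16 CPM per kb). In IL5-Tg libraries, Il4ra was highest at 64.4 ± 11.0 CPM per kb (SD, n = 4), above Il2rg at 33.5 ± 6.41 and Il13ra1 at 4.52 ± 1.05. The ratio of Il4ra to Il2rg was 0.857, 0.993 and 0.561 for the WT libraries, against 1.69, 2.07, 2.15 and 1.83 for the IL5-Tg libraries. Thus Il4ra per length was below Il2rg in WT replicates 1 and 3 and about level with it in WT replicate 2. Each IL5-Tg library held more Il4ra than Il2rg. The WT order depends on the exon lengths, since in CPM the WT mean of Il4ra (139) was above that of Il2rg (71.1). These ratios are a description, since the numerator is the gene that was called. Among all 9 members, the WT order per length was Chil3, Stat6, Il4, Il2rg, Il4ra, Arg1, Il13ra1, Il13 and Irf4, where Il13ra1 and Il13 (6.17 and 6.07 CPM per kb) did not differ beyond their spread. The wide spread of Chil3 (94.6 ± 61.6 CPM per kb) also covered Stat6 (mean 69.7), and the spreads of Il4 (44.5 ± 13.1) and Il2rg, and of Arg1 (12.2 ± 10.5) and its neighbours, overlapped. In IL5-Tg libraries the order was Stat6, Il4ra, Chil3, Il2rg, Arg1, Il4, Il13, Il13ra1 and Irf4, with overlaps among the upper 6. Stat6 (73.6 ± 20.2) and Il4ra overlapped, Chil3 (47.6 ± 32.3) covered the means of Stat6, Il4ra and Il2rg, and Arg1 (33.3 ± 23.9) covered those of Il2rg and Il4.

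**Figure D3:**
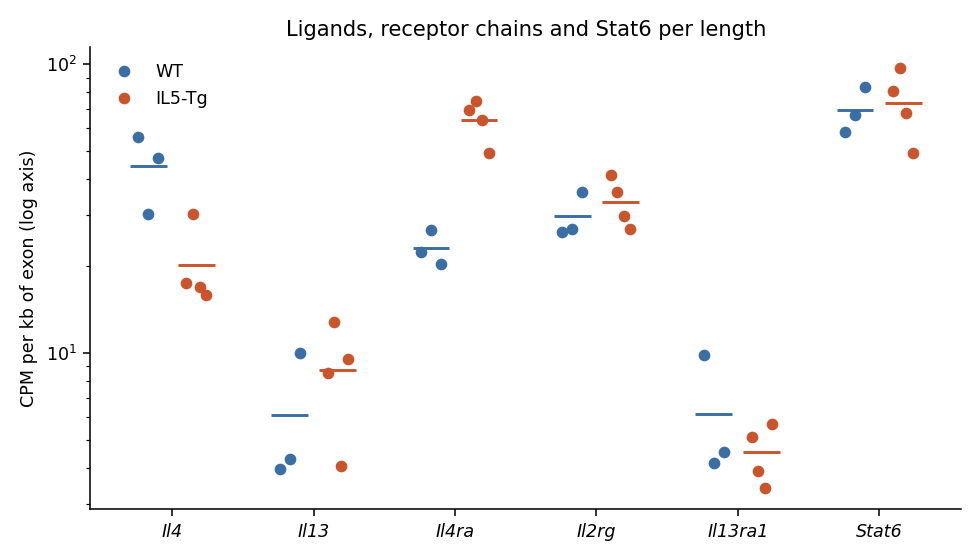
CPM per kb of annotated exon (log axis) of the ligands, receptor chains and Stat6 in each library (points; WT blue, IL5-Tg orange) with group means (lines). The mean of Il4ra moves from below that of Il2rg in WT, where 1 library has them about level, to above it in IL5-Tg. Il4 lies closer to Il13 in IL5-Tg.

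Arg1 encodes arginase 1, which splits arginine to ornithine and is a classic mark of macrophages exposed to IL-4. WT replicates 1, 2 and 3 held 52.8, 22.0 and 6.90 CPM. IL5-Tg replicates 1, 2, 3 and 4 held 64.1, 42.8, 152 and 37.6 CPM. WT replicate 1 lay inside the IL5-Tg range, and IL5-Tg replicate 3 alone held more than double the next library. Arg1 had a fitted log2 fold change of 1.44 ± 0.74 (SE; 95% interval -0.27 to 3.15, edgeR adjusted p = 0.655), and it was 0.82 without IL5-Tg replicate 3 and 2.37 without WT replicate 1.

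Chil3 encodes a secreted chitinase-like protein of macrophages and neutrophils, also called Ym1. WT replicates 1, 2 and 3 held 267, 74.5 and 121 CPM. IL5-Tg replicates 1, 2, 3 and 4 held 48.9, 29.6, 150 and 82.3 CPM. The groups overlapped, WT replicate 1 being the highest of all. For Chil3 the log2 fold change was -0.99 ± 0.59 (SE; 95% interval -2.34 to 0.36, edgeR adjusted p = 0.730), and it was -0.33 without WT replicate 1. Chil4, whose window is shown above, had 1 read in all 7 libraries, although how reads that match related genes were divided is not given in the sources used here.

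The levels of macrophage genes also varied between libraries. The WT libraries held 373, 674 and 68.4 CPM of C1qa, a complement gene and 1 of the 15 listed markers, chosen after its values were seen, and the IL5-Tg libraries 585, 350, 776 and 602 CPM. The lowest Arg1 and the lowest C1qa fell in WT replicate 3, and the highest of both in IL5-Tg replicate 3, but between these extremes the order differed: WT replicate 2 held the second highest C1qa and the second lowest Arg1. WT replicate 1 held the highest Chil3 together with the highest level of the monocyte chemokine receptor gene Ccr2 (114 CPM), and IL5-Tg replicate 2 the lowest of both (29.6 and 24.7 CPM). Ccr2 is shown because it was one of the 3 genes most like Chil3 in pattern, so this likeness is no independent observation, and it was not among the 3 when levels were centred within each group. All 15 macrophage and monocyte markers had reads in all 7 libraries, their sum ranging from 3407 to 8206 CPM in WT and from 5233 to 8949 CPM in IL5-Tg libraries, and 0 of 15 were called by edgeR. The highest sum was in IL5-Tg replicate 4, where Arg1 was at 37.6 CPM. Neutrophil markers, of a cell type that also makes the Chil3 protein, summed to 9303 to 10497 CPM in WT and 2532 to 4296 CPM in IL5-Tg libraries, with 1 of 9 tested called lower and 1 higher. The part of macrophage or neutrophil RNA in the levels of Arg1 and Chil3 was not tested.

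**Figure D4:**
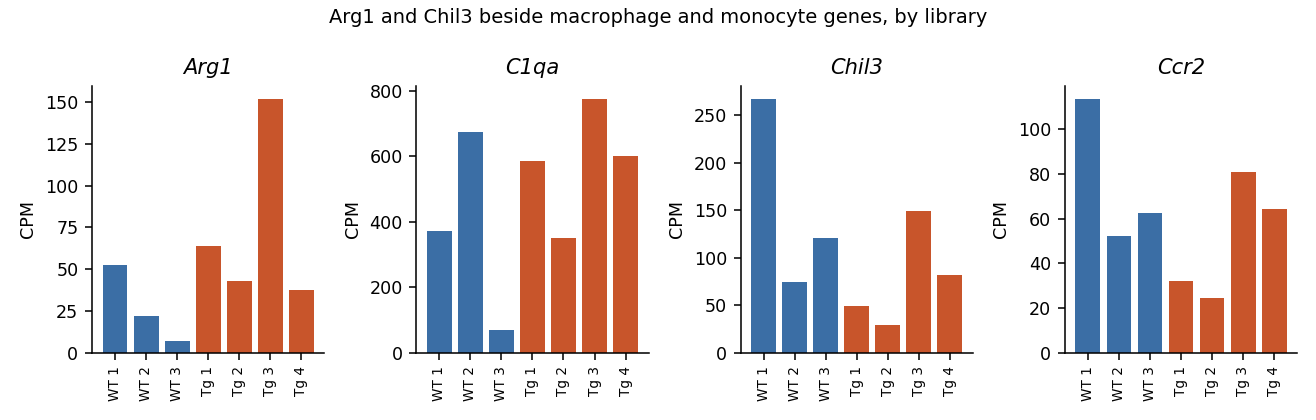
CPM (linear axes from 0) of Arg1, C1qa, Chil3 and Ccr2 in each library; bars are single libraries, WT in blue and IL5-Tg (written Tg) in orange. Arg1 and C1qa are both lowest in WT 3 and highest in Tg 3, and Chil3 and Ccr2 are both highest in WT 1 and lowest in Tg 2.

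Most listed genes known to respond to these cytokines did not pass the test. The list includes the members Il4ra, Arg1, Chil3 and Irf4, so its counts and median partly repeat their values. Of 30 listed genes 27 were tested, 3 rose (Retnla, Socs1 and Il4ra), 0 fell and 24 did not pass. Their median log2 fold change was 0.85, against 0.026 for all genes. A positive value was held by 24 of 27, against 6472 of 12428 genes tested, of which 42 were called higher. Without WT replicate 3, the library low in macrophage markers, the median was 0.49 with 2 genes called, and without WT replicate 1 it was 1.63 with 1 gene called. Marker lists of other cells also had mostly positive values with 0 calls by edgeR: 9 of 9 tested for fibroblasts (median 0.63), 9 of 9 for muscle (0.70), 6 of 6 for endothelium (0.35) and 13 of 15 for macrophages (0.25). Their part in the response genes' median was not tested. Retnla, a resistin-like secreted protein, was at 538, 420 and 438 CPM in WT and 2567, 2809, 2965 and 4002 CPM in IL5-Tg libraries (log2 fold change 2.73, edgeR adjusted p = 0.00311), and it was called under all 17 alternative settings. Among genes chosen after their values were seen, the lectin genes Mrc1, Clec10a and Mgl2 of macrophages were all lowest in WT replicate 3, at 46.7, 2.93 and 0 CPM, and highest in IL5-Tg replicate 3, at 235, 65.3 and 40.5 CPM.

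Of the negative regulators of the SOCS family, 1 of 8 rose. Socs1, which binds Janus kinases and damps signals of many cytokines, was at 19.6, 16.5 and 18.8 CPM in WT and 53.5, 76.2, 84.5 and 59.4 CPM in IL5-Tg libraries. Its groups did not overlap, and its log2 fold change was 1.90 ± 0.26 (SE; edgeR adjusted p = 0.0165). The call was lost without WT replicate 1 (edgeR adjusted p = 0.0950) and without IL5-Tg replicates 2 or 3 (0.0844 and 0.0643), and by limma-voom (adjusted p = 0.131). The median of the family was 0.39. Its member furthest to the right, Socs2, named after its values were seen, was at 19.9, 5.49 and 3.97 CPM in WT and 94.9, 92.1, 69.2 and 78.9 CPM in IL5-Tg libraries and narrowly missed the threshold (edgeR adjusted p = 0.0502).

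None of the 18 kinases, adaptors and phosphatases at the receptor was called by edgeR, and their median log2 fold change was 0.20. The smallest p were those of Irs2, the insulin receptor substrate that docks at the IL-4 receptor, and of the kinase gene Fes. Irs2 was at 6.40, 17.0 and 16.0 CPM in WT and 26.4, 43.4, 26.6 and 40.5 CPM in IL5-Tg libraries, with no overlap (log2 fold change 1.39, edgeR adjusted p = 0.265). For Fes the value was 0.78 (edgeR adjusted p = 0.534).

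Neither the STAT family (0 of 7 called, median 0.015) nor the IRF family (0 of 8 tested called, median -0.16) held a call by edgeR. In the STAT family the smallest p were those of Stat4 (log2 fold change -1.56, edgeR adjusted p = 0.474) and Stat5b (-0.34, adjusted p = 0.778). In the IRF family they were those of Irf1, an interferon-induced factor (-0.59, edgeR adjusted p = 0.616), and Irf8, a factor of myeloid development (0.53, adjusted p = 0.772). Of the co-regulators and partners of STAT6, 0 of 16 were called by edgeR, and the lowest p were those of the histone demethylase gene Kdm6b (-0.94, adjusted p = 0.416) and the acetyltransferase gene Crebbp (-0.67, adjusted p = 0.537).

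Among the regulators of Il4 and Il13 transcription, 0 of 21 tested genes were called by edgeR, and their median was 0.068. Nfatc2, a calcium-dependent activator of cytokine genes, was at 12.1, 8.24 and 9.26 CPM in WT and 35.5, 40.1, 39.7 and 19.8 CPM in IL5-Tg libraries (log2 fold change 1.77, edgeR adjusted p = 0.0755). Gata2, a factor of the eosinophil, basophil and mast cell lineages, was at 14.3, 16.8 and 35.3 CPM in WT and 75.0, 72.9, 58.4 and 56.3 CPM in IL5-Tg libraries (log2 fold change 1.57, edgeR adjusted p = 0.126). Neither had overlapping groups, and both were called under 5 of 17 alternative settings. Il5 (log2 fold change 9.38, edgeR adjusted p = 0.00952) was the 1 call among 9 tested ligand and receptor relatives. It is the namesake of the transgene, so its call is no independent observation about the list. Counts per gene symbol do not separate RNA of the transgene from that of the mouse's own Il5. Without IL5-Tg replicates 1, 2 or 3 its edgeR adjusted p was 0.0541, 0.0504 and 0.0533, at log2 fold changes of 9.46, 9.31 and 9.44.

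Around Arg1, no gene of arginine and polyamine metabolism passed (0 of 12 tested by edgeR, median 0.19). The arginine transporter gene Slc7a1 was at 31.7, 47.3 and 62.3 CPM in WT and 24.3, 23.4, 19.0 and 23.8 CPM in IL5-Tg libraries (log2 fold change -1.06, edgeR adjusted p = 0.221). The spermine synthase gene Sms was at 18.4, 15.0 and 14.6 CPM in WT and 5.62, 5.84, 7.14 and 7.89 CPM in IL5-Tg libraries (-1.27, edgeR adjusted p = 0.231). Nos2, which encodes the inducible nitric oxide synthase that competes for arginine, was at most 2.64 CPM. Of the chitinase family, 3 genes were tested and 0 called by edgeR, Chil3 and Ctbs (-0.32, adjusted p = 0.854) having the smallest p.

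**Figure D5:**
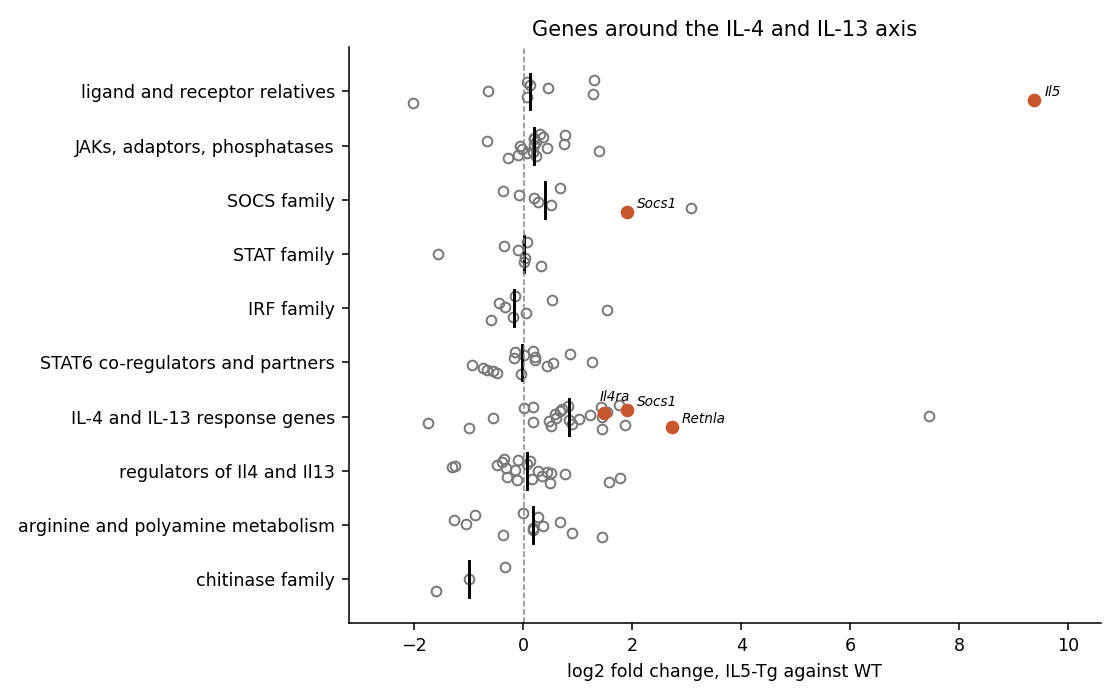
Log2 fold change of IL5-Tg against WT (x axis) for each tested gene of 10 gene lists around the axis; filled orange points are called genes with their names, open points did not pass, black bars are list medians and the dashed line is the median of all genes. The called genes are Il5 (the namesake of the transgene), Socs1, Retnla and Il4ra. The median of the response genes, 0.85, lies furthest to the right. The open point far to the right among the response genes is Cdh1, with 0 reads in all 3 WT libraries and 10 to 43 reads in the IL5-Tg libraries.

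Genes most like a member in pattern were named by the smallest root mean square difference of centred log2(CPM + 1) over the 7 libraries, as a description. For Il4ra they were Tmem201 (0.16), Pgam1 (0.17) and Sox6 (0.17), where Il4ra itself deviated from its mean by 0.75. For Il4 they were Glipr1 (0.22), Lin28a (0.23) and Elovl5 (0.23), and for Il13 they were Slc25a25 (0.19), Ttc30a1 (0.19) and Arl4c (0.21). Il2rg was nearest to Fbxw11 (0.050), Nsun4 (0.093) and Cog2 (0.095), Stat6 to Zc3h4 (0.074), Grina (0.079) and Cnppd1 (0.087), and Il13ra1 to Cox7b (0.15), Cycs (0.16) and Ptpdc1 (0.17). Chil3 was nearest to Snhg12 (0.27), Wfdc17 (0.31) and Ccr2 (0.32), and Irf4 to Tcp11l1 (0.082), Mypop (0.12) and Cyb561d2 (0.15). The genes nearest to Arg1 were Nr1d1, Tctn3 and Hspb6, at 0.38, 0.44 and 0.46, where Arg1 itself deviated from its mean by 1.23. These differences are not scaled to a member's own spread, so they do not rank the members by closeness of match.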

How the data were processed

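The authors deposited raw read counts per gene symbol, 1 column for each of the 7 libraries and no normalization, as seen from whole numbers with differing totals. Per the labels' protocols, libraries were made with a stranded mRNA kit and sequenced as paired reads on an Illumina NextSeq. The submitters' processing notes list bcl2fastq 2.20, Bowtie, STAR and mm10; for the counting program, its annotation and its strand setting, nothing is stated. Rows for ambiguous and unassigned reads (0.750% to 0.943% and 9.15% to 18.2% of a library) were left out. Replicate numbers follow accession order and pair nothing.

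All genes were fitted together with edgeR 4.0.16 (R 4.3.3; quasi-likelihood F test, TMM, filterByExpr, robust, genotype only), with Benjamini-Hochberg adjustment and calls under 0.05; a positive log2 fold change is higher in IL5-Tg. Standard errors come from the fold change and F. Intervals cover the spread between libraries, and floors of 3 reads cover counting error only. The procedure was also run on simulated counts, with an outcome that is not reported here. A gene that did not pass the test may still differ between the groups. Lengths are unions of GENCODE vM21 exons. No set test was run. Alternatives included DESeq2 1.42.0 and limma-voom (limma 3.58.1). No library was a repeat of another (chi-square per gene 26.0 to 149 within groups).

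The members and gene lists were chosen with earlier results of these data known. Named genes were the 9 members, up to 4 called genes per list (else the 2 with the smallest p), and the 3 genes most like each member. Marker lists whose sums are not given above had these summed CPM ranges in WT and IL5-Tg libraries: T cell and ILC2 9.55 to 49.6 and 19.4 to 63.4, B cell 3.14 to 8.79 and 2.38 to 6.92, dendritic cell 1344 to 3251 and 2240 to 4134, muscle 107 to 609 and 512 to 1536, endothelium 169 to 206 and 133 to 251.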

Additional observations from a re-analysis of the deposited data

Results flagged for a closer look

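Of 25 named genes checked in the 4 IL5-Tg libraries, 2 had a library that stood apart from the other 3 by Dixon's test; chance flags about 1 in 20 such groups. Il4 was highest in IL5-Tg replicate 2, at 37.1 CPM, against 19.5 to 21.5 CPM in the others. Slc7a1, an arginine transporter gene, was lowest in IL5-Tg replicate 3, at 19.0 CPM, against 23.4 to 24.3 CPM in the others.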

How the results depend on the processing

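Of 150 values of the 9 members under alternative settings, 146 kept their direction. The exceptions were Il13ra1 without WT replicate 1 (0.064, in a range without single libraries from -0.64) and Stat6 without WT replicate 1 (-0.028), without IL5-Tg replicate 2 (-0.082, in a range up to 0.26) and with a replicate block (-0.11), none of them called in any setting. Il4ra was called under 9 of 17 settings, among them DESeq2 (adjusted p = 3.9e-05), and its log2 fold change ranged from 1.20 to 1.62. It was not called by limma-voom (adjusted p = 0.0557), leaving 0 members called. With the shared start of the sample titles as a replicate block, 0 members were called, Il4ra being at 1.20 (edgeR adjusted p = 0.451), while 52 genes were called in all; the labels do not say that these numbers mark a shared litter or day. IL5-Tg replicates 1 and 2 also share a start with each other. The 2 pairs that share a start across groups (WT replicate 1 with IL5-Tg replicate 3, WT replicate 2 with IL5-Tg replicate 4) correlated at 0.175 and -0.0233 in their deviations from the group means. Both values lay inside the range of the pairs across groups without a shared start, from -0.399 to 0.540. The count of all genes called was 224 by DESeq2, 22 by limma-voom, 92 with counts divided by the centre of the window of 5 low counts that held most genes (3 reads in IL5-Tg replicates 1, 2 and 3), 100 with that divisor taken as 1 in those 3 libraries (an alternative added after seeing the data), and 16 to 97 without single libraries. Without WT replicates 1, 2 and 3 it was 19, 61 and 97, and without IL5-Tg replicates 1, 2, 3 and 4 it was 16, 16, 17 and 30. The share of calls that were higher was 82.4% in the main fit, 64.7% by DESeq2 and 49.2% without WT replicate 2. Called members numbered 0 to 1 and called list genes 1 to 6 without single libraries. List genes called were 4 in the main fit, 11 by DESeq2, 2 by limma-voom, and 7 with either division of counts. Il4ra over Il2rg in WT, 0.778 per length, was 1.96 in CPM. Of the 27 genes named as most like a member, 4 were named again after centring within each group. Levels under about 10 CPM, as of Il13 and Irf4, are limited by the few molecules sampled in WT libraries. Il13 and Irf4 were not tested with a mean of at least 10 CPM, nor Irf4 in the first of the divisions of counts.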
